A study of Rattus norvegicus with 54 samples.

Results

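The 10 genes of antioxidant and glutathione defense, Nqo1, Gclc, Gclm, Txnrd1, Sod1, Sod2, Sod3, Cat, Gpx1 and Gpx3, were followed in the left ventricle of the rat heart. They were found by matching their symbols to the first column of the 54 count files, which held all 10 among 40319 gene symbols. All 10 passed the filter on low counts in every comparison, and the lowest count of any of them in any library was 182. The animals were female athymic rats (strain F344/NJcl-rnu/rnu), 8 weeks old, and hearts were taken 1 week after surgery. Sham rats had a sham operation, and MI rats had the left anterior descending coronary artery permanently ligated and no further treatment. MI+Cell Sheet rats had the ligation and a bi-level sheet of endothelial progenitor cells and smooth muscle cells, both of human origin, placed over the infarct. Each heart gave 1 library from the infarct zone, 1 from the border zone and 1 from the remote zone, so that 18 hearts, 6 per treatment, gave 9 groups of 6 libraries. In Sham hearts the infarct and border zones are positions only, since no infarct was made. The labels number the 6 libraries of a group as technical replicates, whereas the study's methods describe separate hearts, and the numbers were read here as hearts. Polyadenylated RNA was counted against rat genes only, so RNA of the human cells was not counted separately, and whether some of its reads were counted on rat genes was not tested. In whole tissue, fewer cells of a type and less of an RNA per cell cannot be told apart.

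These enzymes handle successive steps of oxidant removal. Superoxide dismutases turn superoxide into hydrogen peroxide, in the cytosol (Sod1), in mitochondria (Sod2) and outside the cell (Sod3). The peroxide is then broken down by catalase (Cat) in peroxisomes or by glutathione peroxidases, of which Gpx1 is intracellular and Gpx3 is secreted. Glutathione for the peroxidases is made in a first, limiting step by glutamate-cysteine ligase, a pair of a catalytic subunit (Gclc) and a modifier subunit (Gclm). Txnrd1 reduces cytosolic thioredoxin and Nqo1 reduces quinones. The transcription factor NRF2 drives several of these genes through antioxidant response elements, short DNA motifs near their starts. Heart muscle, rich in mitochondria, carries high levels of the mitochondrial enzymes.

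The promoters are shown because NRF2-driven genes of the set, the ligase pair first among them, did not move together below. RefSeq sequences on the GRCr8 build (the counts were made on mRatBN7.2) covered 9 of the 10 genes in 10 windows, each of 250 bases before and 50 after the gene's start, with 2 windows for Txnrd1 and none matched for Sod3. The core of the antioxidant response element was searched as TGACNNNGC on both strands, where N is any base. It was present in 3 of the 10 windows, those of Gclm, of Txnrd1 (the second start) and of Sod2, and in 12.1% of 33469 rat promoter windows of the same length. The match was 172 to 164 bases before the start in Gclm, 78 to 70 in Txnrd1 and 35 to 27 in Sod2, each time on the strand opposite to the gene, so that capitals mark the reverse complement of the core. A match describes letters and is not a known binding site, and a window without one says nothing about the factor. The 250 bases before the start, on the strand of the gene, are as follows, at chr2:213031885-213032134 (+ strand) for Gclm, chr7:22755905-22756154 (- strand) for Txnrd1 and chr1:50050169-50050418 (- strand) for Sod2.
Gclm: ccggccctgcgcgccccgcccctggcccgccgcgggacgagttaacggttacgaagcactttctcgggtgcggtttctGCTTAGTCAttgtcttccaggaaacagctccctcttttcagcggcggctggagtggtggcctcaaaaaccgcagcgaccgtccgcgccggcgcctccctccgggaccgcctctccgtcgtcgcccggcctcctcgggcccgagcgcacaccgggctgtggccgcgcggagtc
Txnrd1: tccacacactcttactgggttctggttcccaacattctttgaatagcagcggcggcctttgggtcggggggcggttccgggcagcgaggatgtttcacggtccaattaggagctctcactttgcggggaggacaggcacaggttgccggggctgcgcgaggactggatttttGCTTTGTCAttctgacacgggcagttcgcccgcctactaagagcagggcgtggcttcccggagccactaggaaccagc
Sod2: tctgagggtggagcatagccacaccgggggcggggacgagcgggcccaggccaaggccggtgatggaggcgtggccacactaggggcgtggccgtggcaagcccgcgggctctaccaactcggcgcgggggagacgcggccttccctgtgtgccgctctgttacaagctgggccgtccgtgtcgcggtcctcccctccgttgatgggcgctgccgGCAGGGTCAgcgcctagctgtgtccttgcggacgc

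Libraries held 12699204 to 23397754 counts on genes. The labelled tissue was checked with 8 cardiomyocyte genes (Myh6, Tnnt2 and Tnni3 among them), which were detected in every library, and their summed level had medians of 63103, 61190 and 65078 CPM (counts scaled to a common library size) in the infarct, border and remote zones of Sham hearts, 11475, 21944 and 36464 CPM in MI hearts and 2789, 20256 and 55106 CPM in MI+Cell Sheet hearts. A Sham heart and a remote library were among those that stood apart. The heart labelled Sham replicate 5 had summed macrophage genes at 12983, 12952 and 7488 CPM in the 3 zones, against Sham medians of 678, 717 and 423 CPM. Its T cell genes were at 282, 349 and 236 CPM against medians of 2.99, 1.59 and 2.12 CPM. Its cardiomyocyte genes were the lowest of the Sham hearts in each zone (23403, 21447 and 33410 CPM). The remote library of MI+Cell Sheet replicate 1 had fibroblast genes at 41780 CPM and cardiomyocyte genes at 22211 CPM, against group medians of 5092 and 55106 CPM. Other single libraries also lay far from their group. The lowest cardiomyocyte level with the sheet was 161 CPM at the border and 849 CPM in the infarct zone (medians 20256 and 2789 CPM). Summed lung genes (Sftpc, Sftpb and Scgb1a1) reached 126 CPM in a border library with the sheet and 115 CPM in one of MI. Their group medians were 0.524 and 0.366 CPM. The border calls of Cat and Gpx1 with the sheet held whichever heart was left out. Calls that changed without Sham replicate 5 or MI+Cell Sheet replicate 1 are given beside the result or under the dependence on processing.

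**Figure D1:**
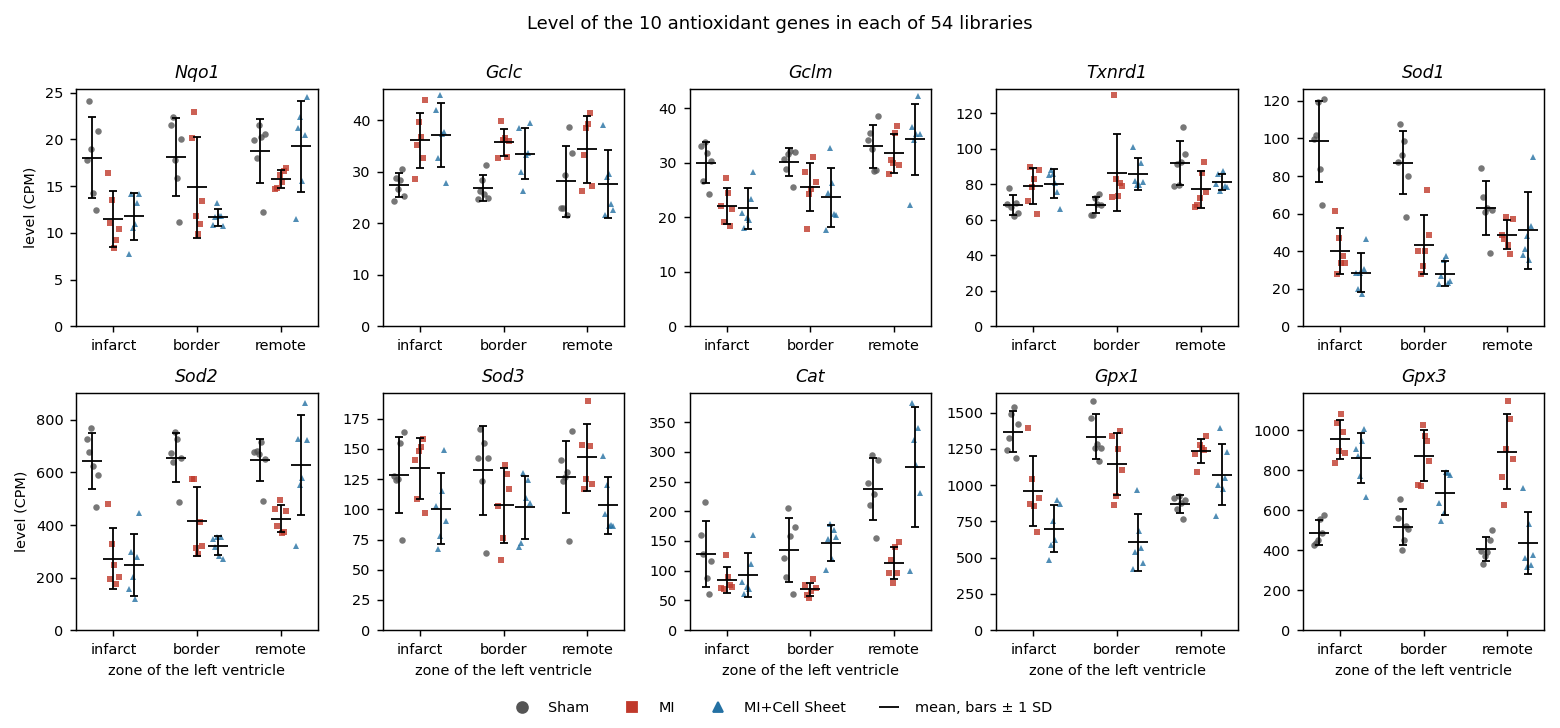
Level of each gene, in CPM after scaling by trimmed mean of M-values, in all 54 libraries (points), by zone on the horizontal axis and treatment by colour, with the mean and 1 SD of 6 libraries. Gpx3 in the MI hearts (red squares) lies above all Sham libraries in all 3 zones, and Cat in the remote zone of MI hearts lies between 79.0 and 148 CPM, below all Sham libraries there.

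The effect of untreated infarction was asked by setting MI against Sham within each zone. In the infarct zone 7 of the 10 genes differed at an adjusted p under 0.05, Gclc and Gpx3 higher and Nqo1, Gclm, Sod1, Sod2 and Gpx1 lower, where 49.9% of the 15758 genes tested differed (22.7% higher, 27.2% lower). The border zone had 5 of 10 (background 41.7%, with 18.4% higher and 23.2% lower), Gclc and Gpx3 higher and Sod1, Sod2 and Cat lower. The remote zone had 4 of 10 (background 25.8%, with 11.7% higher and 14.2% lower), Gpx1 and Gpx3 higher and Sod2 and Cat lower. The median log2 fold change of the 10 genes was -0.48, -0.26 and -0.15 in the 3 zones, beside -0.02, -0.02 and -0.04 over all genes tested. All libraries of the 2 groups were apart for 2, 2 and 4 of the 10 genes, against 14.2%, 11.5% and 8.26% of all genes. Read against the background, 70%, 50% and 40% of the 10 genes were called where 49.9%, 41.7% and 25.8% of all genes were, which is not a result about these genes as a set.

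Those counts moved with 1 Sham heart and with the cardiomyocyte genes. Without Sham replicate 5 the counts were 8, 7 and 7 of 10 genes (background 64.8%, 60.8% and 46.5%), the added genes being Cat in the infarct zone, Txnrd1 (higher) and Sod3 (lower) in the border zone. The remote zone gained Gclc (higher), Nqo1 and Sod1 (lower). With the mean log2 level of the 8 cardiomyocyte genes as a covariate, a fit added after the data were seen, 1 gene was called in infarct tissue and 1 in border tissue, Gpx3 higher in both. Remote tissue kept a count of 4, Gpx1 and Gpx3 higher and Txnrd1 and Cat lower. The share of all genes called in those fits was 4.14%, 6.66% and 15.5%. The covariate and the treatment moved together in each zone, and their parts in the result cannot be told apart. In the remote zone the cardiomyocyte genes had medians of 65078 CPM in Sham and 36464 CPM in MI. Counts also depended on scaling: without the trimmed mean of M-values (TMM) the median of all genes shifted by 0.26, 0.19 and 0.13. The share of called genes that were higher moved from 45.5%, 44.2% and 45.1% to 67.1%, 64.1% and 68.6%. Of the 10 genes 5, 5 and 4 were then called (background 52.8%, 41.9% and 24.8%). Nqo1, Gclm and Gpx1 were no longer called in the infarct zone nor Sod2 at the border, while Txnrd1 was called higher in both of these zones. No gene called under both scalings changed direction.

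The 2 subunits of glutamate-cysteine ligase moved in opposite directions in the infarct zone. Gclc, the catalytic subunit, ran from 24.4 CPM through a median of 27.6 to 30.6 CPM in Sham and from 28.5 through 36.1 to 43.9 CPM in MI, so that the groups overlapped only at their edges. Its log2 fold change was 0.40 ± 0.11 (SE, n = 6 against 6, adjusted p = 0.0100). Gclm, the modifier subunit, ran from 24.3 (median 31.0) to 33.9 CPM in Sham and from 18.4 (median 21.8) to 27.1 CPM in MI, and fell by 0.44 ± 0.12 on the log2 scale (adjusted p = 0.0090), a call lost without TMM (-0.17, adjusted p = 0.18). Border Gclc was 24.7 to 31.3 CPM in Sham and 32.8 to 39.9 CPM in MI, with no overlap, and rose by 0.41 ± 0.09 (adjusted p = 0.0046). Border Gclm did not pass the test (-0.24 ± 0.12, adjusted p = 0.13). Neither subunit passed in the remote zone, at 0.28 ± 0.17 (adjusted p = 0.25) for Gclc and -0.06 ± 0.10 (adjusted p = 0.70) for Gclm. The ratio of the 2 within a library, which does not depend on library scaling, was also tested. It uses the same counts and is not separate support. The log2 ratio of Gclm to Gclc was -0.33 to 0.44 in the infarct zone of Sham hearts and -1.03 to -0.37 in MI hearts, with no overlap, a difference of -0.83 (exact permutation test, two-sided, adjusted p = 0.0065 over 24 ratio tests, 6 against 6). Border libraries differed by -0.67 (exact permutation test, adjusted p = 0.016), and the -0.35 of remote libraries did not pass with all hearts (exact permutation test, adjusted p = 0.10). Without Sham replicate 5 the remote difference was -0.49 and passed (exact permutation test, adjusted p = 0.010). For 6 libraries against 6 the smallest unadjusted p of this test is 0.0022.

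Of the reductases Nqo1 and Txnrd1, both textbook NRF2 targets, Nqo1 fell in the infarct zone. Txnrd1 passed in no zone in the reported fit, which used TMM scaling, all hearts and no covariate. With the cardiomyocyte covariate it was called lower in the remote zone. Nqo1 was 12.4 (median 18.4) to 24.1 CPM in the infarct zone of Sham hearts and 8.40 (median 10.7) to 16.4 CPM in MI hearts, a fall of 0.65 ± 0.20 on the log2 scale (adjusted p = 0.017) that was not called without TMM (-0.39, adjusted p = 0.080). It did not pass in the border zone (-0.28 ± 0.24) or the remote zone (-0.25 ± 0.13), and MI libraries of the border zone spread from 9.84 to 23.0 CPM. The log2 fold change of Txnrd1 was 0.21 ± 0.10 in the infarct zone (adjusted p = 0.093), 0.34 ± 0.14 in the border zone (adjusted p = 0.067) and -0.26 ± 0.11 in the remote zone (adjusted p = 0.11). Without TMM it was 0.48 in the infarct zone (adjusted p = 0.0049) and 0.54 in the border zone (adjusted p = 0.020), both past the test. Its level was 62.2 to 78.2 CPM in Sham and 63.5 to 89.7 CPM in MI in the infarct zone, and 79.3 to 112 CPM and 67.4 to 92.9 CPM in the remote zone. The sign of its fold change was thus opposite in the infarct and remote zones.

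Of the superoxide dismutases, the cytosolic and the mitochondrial enzymes fell and the extracellular enzyme did not pass. Sod1 was 64.7 (median 101) to 121 CPM in the infarct zone of Sham hearts and 27.7 (median 35.7) to 61.3 CPM in MI hearts, with no overlap, and was 0.409 of the Sham level (log2 fold change -1.29 ± 0.20, adjusted p = 0.00067). At the border it was 58.4 (median 89.2) to 107 CPM in Sham and 27.9 (median 40.1) to 72.3 CPM in MI (-1.01 ± 0.22, adjusted p = 0.0051). The only Sham library inside the MI range there was replicate 5. Remote Sod1 did not pass with all hearts (-0.37 ± 0.15, adjusted p = 0.094) and passed without Sham replicate 5 (-0.47, adjusted p = 0.0044). Sod2, the mitochondrial enzyme, fell in all 3 zones. Infarct libraries held 468 (median 651) to 768 CPM in Sham and 176 (median 226) to 481 CPM in MI (-1.24 ± 0.24, adjusted p = 0.0022). Its log2 fold change was -0.66 ± 0.20 at the border (adjusted p = 0.021, and -0.46 with adjusted p = 0.078 without TMM) and -0.61 ± 0.11 in the remote zone (adjusted p = 0.0025), where MI libraries held 369 to 493 CPM and 5 of 6 Sham libraries 653 to 715 CPM, Sham replicate 5 lying at 491 CPM (these met on the scale of all libraries and were apart on that of the 12 compared). Sod3 had log2 fold changes of 0.06 ± 0.18, -0.36 ± 0.25 and 0.18 ± 0.17 in the 3 zones, none past the test. The log2 ratio of Sod3 to Sod2 was higher in MI hearts, by 1.40 in the infarct zone and 0.81 in the remote zone, with no overlap in either (exact permutation tests, adjusted p = 0.0065 for each), while the border difference of 0.35 did not pass (exact permutation test, adjusted p = 0.43).

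Catalase was called lower in MI hearts in the remote and border zones. Remote Cat was 155 (median 239) to 295 CPM in Sham and 79.0 (median 107) to 148 CPM in MI, with no overlap, and stood at 0.475 of the Sham level (-1.08 ± 0.18, adjusted p = 0.0018). At the border it was 61.2 (median 140) to 205 CPM in Sham and 54.4 (median 68.5) to 85.7 CPM in MI (-0.98 ± 0.25, adjusted p = 0.011), the lowest Sham library again being replicate 5. In the infarct zone, where Sham libraries themselves spread from 60.5 to 216 CPM, the difference did not pass with all hearts (-0.61 ± 0.27, adjusted p = 0.077) and passed without Sham replicate 5 (-0.75, adjusted p = 0.011) or MI replicate 3 (-0.76, adjusted p = 0.037). With the cardiomyocyte covariate the remote value was -0.75 (adjusted p = 0.048), the border value -0.35 (adjusted p = 0.55) and the infarct value 0.01 (adjusted p = 0.99).

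Of the 2 glutathione peroxidases, the secreted Gpx3 was the one gene of the 10 whose MI and Sham libraries were apart in all 3 zones. Gpx3 was 425 (median 468) to 574 CPM in the infarct zone of Sham hearts and 835 (median 943) to 1083 CPM in MI hearts. It was 403 (median 513) to 658 against 722 (median 898) to 1028 CPM at the border, and 333 (median 394) to 503 against 628 (median 880) to 1145 CPM in the remote zone. All MI libraries were above all Sham libraries of their zone. Its log2 fold changes were 0.97 ± 0.13 (adjusted p = 0.00022), 0.76 ± 0.15 (adjusted p = 0.0033) and 1.13 ± 0.15 (adjusted p = 0.00083), or 1.96-fold, 1.69-fold and 2.18-fold. They were 0.83, 0.73 and 0.77 with the cardiomyocyte covariate, each still past the test (adjusted p = 0.012, 0.043 and 0.016). Gpx1, the intracellular enzyme, fell in the infarct zone and rose in the remote zone. It was 1187 (median 1375) to 1538 CPM in Sham and 677 (median 891) to 1394 CPM in MI in the infarct zone (-0.51 ± 0.17, adjusted p = 0.026). This call was lost in 6 of the 12 fits that each left out 1 heart (MI replicate 2, 4, 5 or 6 or Sham replicate 3 or 4), with values from -0.64 to -0.43 and adjusted p of at most 0.059. It was also lost without TMM (-0.26, adjusted p = 0.17). Remote Gpx1 was 767 (median 888) to 928 CPM in Sham and 1092 (median 1246) to 1340 CPM in MI, with no overlap (0.51 ± 0.09, adjusted p = 0.0023). Border Gpx1 did not pass (-0.22 ± 0.16, adjusted p = 0.26). Within Sham hearts Gpx1 had a mean of 1368 ± 140 CPM (SD, n = 6) at the infarct position and 870 ± 59.4 CPM in the remote zone, a difference that was not tested.

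A change of the MI effect from zone to zone was tested as an interaction of treatment and zone, with each heart as a block. Between infarct and remote zones it differed for 4 of the 10 genes, where 28.9% of 16445 genes did (13.6% higher, 15.3% lower). The share of called genes that were higher was 47.0% with TMM and 62.5% without it. The MI effect was lower in the infarct zone for Gpx1 (difference of log2 fold changes -1.04 ± 0.18, adjusted p = 0.0018), Sod1 (-0.95 ± 0.19, adjusted p = 0.0033) and Sod2 (-0.70 ± 0.19, adjusted p = 0.017). It was higher for Txnrd1 (0.46 ± 0.15, adjusted p = 0.034). The Txnrd1 call was lost in 7 of the 12 fits that each left out 1 heart, those without MI replicate 1, 2, 3 or 6 or Sham replicate 4, 5 or 6, with adjusted p of at most 0.075. The other 3 calls were kept without Sham replicate 5. For Gpx3 the difference was -0.14 ± 0.16 (95% interval -0.50 to 0.23), and for Cat 0.55 ± 0.26 (-0.03 to 1.14). Without TMM 5 of the 10 genes were called (background 32.8%), Cat being added with a higher MI effect in the infarct zone. Between border and remote zones and between infarct and border zones no gene in the genome was called by edgeR's quasi-likelihood test (0% of 16475 and 16766 genes). At an unadjusted p under 0.05 the counts were 3995 and 1430 genes, 4 and 2 of them among the 10, led by Gpx1 between border and remote zones (-0.75 ± 0.17, adjusted p = 0.064). Without MI replicate 5, Sod1, Sod3 and Gpx1 were called lower and Txnrd1 higher between border and remote zones. The share of all genes called in that fit is not given here, so this is not read as a result about the set.

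**Figure D2:**
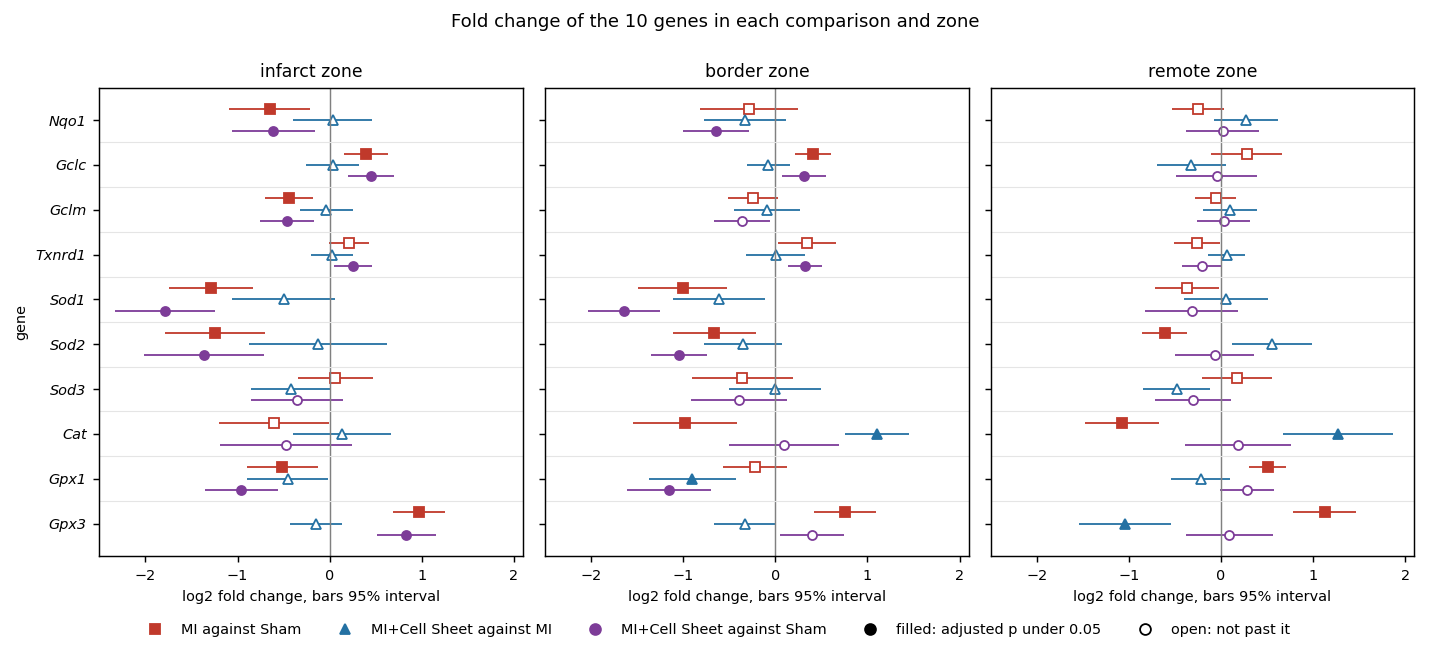
Log2 fold change (horizontal axis) of each gene in 3 comparisons, 1 panel per zone, with bars for the 95% interval and filled symbols for an adjusted p under 0.05. In the remote zone the MI and cell sheet effects on Cat are -1.08 and 1.27 and those on Gpx3 are 1.13 and -1.04, while MI+Cell Sheet against Sham (purple) has no filled symbol there.

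The added effect of the cell sheet was asked by setting MI+Cell Sheet against MI within each zone. These comparisons share the MI libraries with those above, and the 2 sets of values are not independent. Border libraries differed for 2 of 10 genes (background 18.0% of 16272 genes, with 8.47% higher and 9.48% lower), Cat higher and Gpx1 lower. Remote libraries differed for 2 of 10 (background 17.1% of 15374 genes, with 10.3% higher and 6.79% lower), Cat higher and Gpx3 lower. In the infarct zone none of the 10 genes and none of 16196 genes (0%) was called by edgeR. There 1341 genes, 1 of them a member (Gpx1), had an unadjusted p under 0.05, and DESeq2 called 55 genes and none of the 10. When the infarct and border libraries of each heart were summed, since the study took these zones together, 3 of 10 genes differed (background 12.1% of 17985 genes, with 6.02% higher and 6.09% lower), Cat higher and Sod1 and Gpx1 lower. The shares of 20% in the border and remote zones were close to the background. Without TMM the share of called genes that were higher moved from 47.2% to 57.3% in the border zone and from 60.2% to 48.5% in the remote zone. The same 2 members were called in each (background 17.5% and 14.3%). The median log2 fold change of the 10 genes was -0.08, -0.21 and 0.06 from infarct through border to remote tissue, beside -0.0074, -0.0044 and 0.0060 over all genes.

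Catalase was higher with the sheet in the border and remote zones. Border Cat was 54.4 (median 68.5) to 85.7 CPM in MI and 101 (median 155) to 179 CPM in MI+Cell Sheet, with no overlap, and was 2.15-fold higher (log2 fold change 1.11 ± 0.16, adjusted p = 0.0011). The libraries of the groups were fully apart for 1 of the 10 genes in the border zone, 0 in the infarct and remote zones and 2 over the summed libraries, against 9.60%, 0.772%, 4.92% and 7.38% of all genes. Remote Cat was 79.0 (median 107) to 148 CPM in MI, and in MI+Cell Sheet 5 libraries held 231 to 383 CPM while replicate 1 held 98.9 CPM. The difference was 1.27 ± 0.27 (adjusted p = 0.012) with all libraries and 1.44 (adjusted p = 0.00014) without that replicate. Over the summed infarct and border libraries it was 0.64 ± 0.13 (adjusted p = 0.012), and the groups did not overlap. Infarct MI libraries alone held 68.5 to 126 CPM and MI+Cell Sheet 61.1 to 159 CPM, and the difference was 0.13 ± 0.24 (95% interval -0.40 to 0.67). With the cardiomyocyte covariate the border and remote differences were 1.18 (adjusted p = 0.00026) and 0.96 (adjusted p = 0.018). Remote cardiomyocyte genes had medians of 36464 CPM in MI and 55106 CPM with the sheet, so composition and treatment cannot be told apart there.

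Adipocyte genes moved with the border zone result and were examined beside it. The summed level of 5 adipocyte genes (Adipoq, Plin1 and Lep among them) was 0 to 27.1 CPM in the border zone of MI hearts and 0.243 (median 203) to 530 CPM in MI+Cell Sheet hearts. In MI+Cell Sheet replicates 3 and 4, where it was 0.243 and 4.98 CPM, Cat was 179 and 119 CPM, above every MI library. With the mean log2 level of these genes as a covariate, Cat was higher by 1.17 (adjusted p = 0.012) and Gpx1 was not called (-0.56, adjusted p = 0.092). The adipocyte level and the treatment moved together in this zone. Their parts in either result cannot be told apart, and no cause was tested.

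Gpx1 was lower with the sheet in the border zone. It was 863 (median 1177) to 1374 CPM in MI and 419 (median 550) to 964 CPM in MI+Cell Sheet, and 5 of the 6 treated libraries were below the lowest MI library. It stood at 0.536 of the MI level (-0.90 ± 0.21, adjusted p = 0.012). The highest treated values, 964 and 686 CPM, were those of replicates 3 and 4, which had the 2 lowest adipocyte levels. A link between the 2 was not tested. The summed libraries gave -0.69 ± 0.15 (adjusted p = 0.015). Its infarct value was -0.46 ± 0.20 (adjusted p = 0.58) and its remote value -0.22 ± 0.14 (95% interval -0.54 to 0.10). Gpx3 was lower with the sheet in the remote zone, where MI held 628 (median 880) to 1145 CPM and MI+Cell Sheet 319 (median 367) to 710 CPM, the value of 710 CPM again being replicate 1. It stood at 0.486 of the MI level (log2 fold change -1.04 ± 0.22, adjusted p = 0.012), and its log2 fold change was -1.24 (adjusted p = 0.00030) without that replicate. Remote fibroblast genes had medians of 15840 CPM in MI and 5092 CPM with the sheet, replicate 1 holding 41780 CPM. Composition and treatment cannot be told apart there, and a link with Gpx3 was not tested. Border Gpx3 was 722 to 1028 CPM in MI and 545 to 790 CPM in MI+Cell Sheet, which did not pass (-0.33 ± 0.15, adjusted p = 0.14), and in the infarct zone it was -0.15 ± 0.13 (adjusted p = 0.77).

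Among the other members, Sod1 passed over the summed libraries and none passed within a zone by edgeR with all libraries. Sod1 was 27.9 to 72.3 CPM in the border zone of MI hearts and 22.7 to 37.3 CPM with the sheet (-0.61 ± 0.22, adjusted p = 0.077), a difference that passed without MI replicate 2 (-0.70, adjusted p = 0.042). Over the summed libraries it passed (-0.56 ± 0.15, adjusted p = 0.032). That call was lost in 8 of the 12 fits that each left out 1 heart (MI replicate 1, 3, 5 or 6 or MI+Cell Sheet replicate 1, 2, 4 or 5), with values from -0.64 to -0.47 over the 12 fits and adjusted p of at most 0.070. Sod2 in the remote zone was 369 to 493 CPM in MI, and with the sheet 5 libraries held 552 to 866 CPM and replicate 1 held 319 CPM. The difference did not pass with all libraries (0.55 ± 0.20, adjusted p = 0.066) and passed without replicate 1 (0.68, adjusted p = 0.0015). Sod3 did not pass with all libraries (-0.48 ± 0.16, adjusted p = 0.058) and passed, lower, without MI+Cell Sheet replicate 1 (-0.61, adjusted p = 0.0034) or MI replicate 2 (-0.53, adjusted p = 0.048). DESeq2 called both with all libraries, Sod2 at 0.55 (adjusted p = 0.035) and Sod3 at -0.48 (adjusted p = 0.033). Without MI+Cell Sheet replicate 1 6 of the 10 genes were called in the remote zone, Nqo1, Sod2 and Cat higher and Gclc, Sod3 and Gpx3 lower, where 41.6% of all genes were called. The ligase subunits, Nqo1 and Txnrd1 had log2 fold changes between -0.33 and 0.27 over the 3 zones and passed in none with all libraries. For Txnrd1 the 95% intervals were -0.20 to 0.25, -0.32 to 0.33 and -0.14 to 0.26, and for Gclm -0.32 to 0.25, -0.45 to 0.26 and -0.19 to 0.39.

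The ratio of Cat to Gpx1, the 2 intracellular enzymes that break down hydrogen peroxide, was compared next. The ratio uses the same counts as the tests of the 2 genes above. At the border, where Cat was called higher and Gpx1 lower, its difference follows from those calls and is not separate support. As a log2 ratio of counts within a library it was -4.25 to -3.88 in the border zone of MI hearts and -2.53 to -1.56 with the sheet, a difference of 2.03 with no overlap. It was -4.01 to -3.17 against -3.00 to -1.38 in the remote zone, a difference of 1.43 with no overlap (exact permutation tests, two-sided, 6 against 6, adjusted p = 0.0065 for each). Infarct libraries differed by 0.54 (exact permutation test, adjusted p = 0.089). Untreated MI had lowered the same ratio against Sham by 1.59 in remote tissue (exact permutation test, adjusted p = 0.0065), but not detectably in the infarct zone (0.02, adjusted p = 0.96) or, with all hearts, the border zone (-0.65, adjusted p = 0.097). Without Sham replicate 5 the border difference was -0.81 and passed (exact permutation test, adjusted p = 0.047). The ratio of Gpx3 to Gpx1 was higher in MI than in Sham by 1.52, 0.999 and 0.61 from infarct through border to remote tissue (exact permutation tests, adjusted p = 0.0065, 0.0065 and 0.012), and did not pass for the sheet against MI in any zone with all hearts (0.30, 0.60 and -0.84). It passed at the border without MI+Cell Sheet replicate 3 (0.79, exact permutation test, adjusted p = 0.019) and in the remote zone without MI+Cell Sheet replicate 1 (-1.08, exact permutation test, adjusted p = 0.010).

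**Figure D3:**
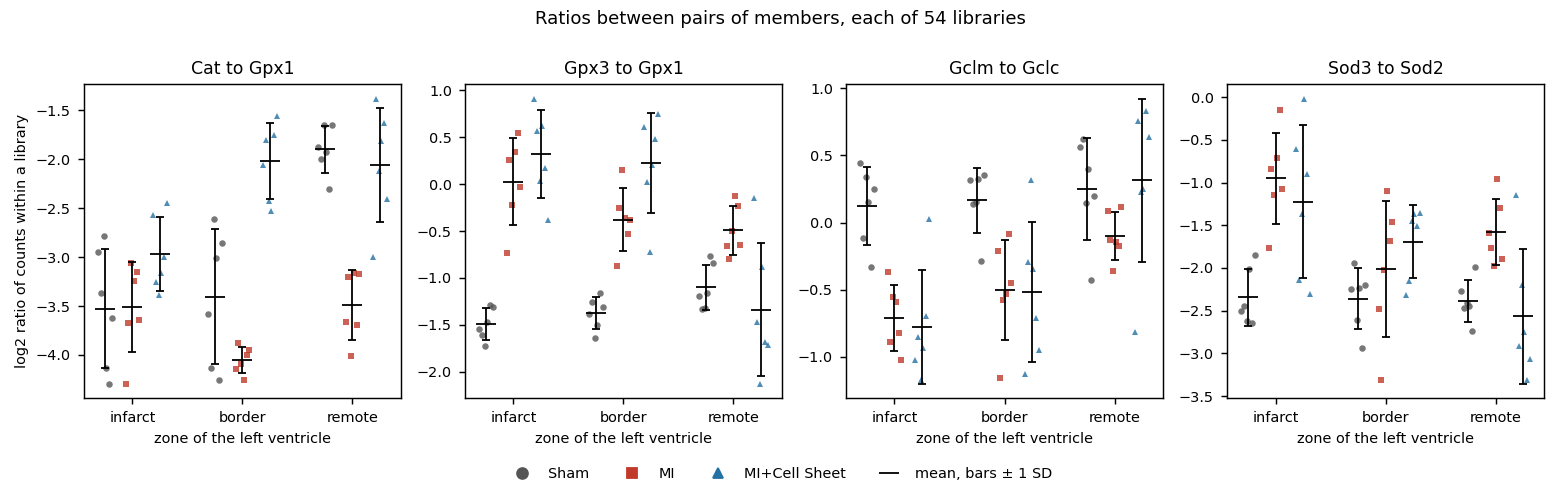
Log2 ratio of the counts of 2 genes within each of 54 libraries (points), by zone and treatment, with the mean and 1 SD of 6 libraries. For Cat to Gpx1 the MI libraries of the border zone sit between -4.25 and -3.88, below all 6 MI+Cell Sheet libraries, and for Gclm to Gclc the MI libraries of the infarct zone sit below all Sham libraries.

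The effect of the sheet was also tested for a difference between zones. No gene of the 10 and none of the 16902, 16784 and 17275 genes tested was called between infarct and remote, border and remote, or border and infarct zones (0% in each, edgeR). An unadjusted p under 0.05 was held by 4190, 3430 and 2012 genes, 5, 3 and 1 of them among the 10. For Cat the border effect minus the infarct effect was 1.02 ± 0.28 (adjusted p = 0.21), and the border effect minus the remote effect -0.07 ± 0.24 (95% interval -0.60 to 0.46). The infarct effect on Gpx3 minus the remote effect was 0.94 ± 0.24 (adjusted p = 0.10) with all libraries and 1.05 (adjusted p = 0.021) without MI+Cell Sheet replicate 1. Without that replicate the Cat effect also differed between these zones (-1.37, adjusted p = 0.039), and the background was 11.8%.

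MI+Cell Sheet hearts were last compared with Sham hearts. In the infarct zone 8 of 10 genes differed (background 57.9% of 15687 genes, with 28.6% higher and 29.2% lower), Gclc, Txnrd1 and Gpx3 higher and Nqo1, Gclm, Sod1, Sod2 and Gpx1 lower. The border zone had 6 of 10 (background 43.6% of 15960 genes, with 20.4% higher and 23.2% lower), Gclc and Txnrd1 higher and Nqo1, Sod1, Sod2 and Gpx1 lower. Some of these calls depended on single hearts or on scaling. Infarct Txnrd1 (0.25, adjusted p = 0.036) was lost in 8 of the 12 fits that each left out 1 heart, those without MI+Cell Sheet replicate 1 to 4 or Sham replicate 1, 3, 4 or 6 (adjusted p of at most 0.095), and was not called by DESeq2 (adjusted p = 0.067). Border Gclc (0.31, adjusted p = 0.033) was lost in 8 of 12, those without MI+Cell Sheet replicate 1, 4, 5 or 6 or Sham replicate 1, 2, 4 or 6 (adjusted p of at most 0.078). Infarct Nqo1 (-0.61, adjusted p = 0.021) was lost without Sham replicate 2 (adjusted p = 0.052). Without TMM infarct Nqo1 and Gclm were not called, border Gpx3 was, and the share of called genes that were higher moved from 49.5% to 66.3% in the infarct zone and from 46.8% to 71.2% in the border zone. The remote zone had none of the 10 called by edgeR, none had an unadjusted p under 0.05 and DESeq2 called none. The background there was 0.00660% of 15157 genes (1 gene) called by edgeR and 173 genes by DESeq2, 1520 having an unadjusted p under 0.05. All libraries of the groups were apart for 3, 4 and 0 of the 10 genes in the infarct, border and remote positions, against 20.5%, 19.6% and 1.31% of all genes. Sod1 had the largest changes, at 17.0 (median 28.6) to 46.6 CPM in infarct and 22.7 (median 25.3) to 37.3 CPM in border tissue with the sheet, below all Sham libraries in both (-1.79 ± 0.24, adjusted p = 0.00017, and -1.64 ± 0.17, adjusted p = 3.7e-05). Gpx1 was likewise below all Sham libraries in both zones (-0.96 ± 0.18, adjusted p = 0.0011, and -1.15 ± 0.21, adjusted p = 0.00095). Cat passed in none of the zones (-0.47 ± 0.32, 0.10 ± 0.27 and 0.19 ± 0.26). The log2 fold change of Gpx3 was 0.83 ± 0.14 in the infarct zone (adjusted p = 0.00063), 0.40 ± 0.16 in the border zone (adjusted p = 0.055, and past the test without MI+Cell Sheet replicate 2 or 3 or Sham replicate 2) and 0.09 ± 0.21 in the remote zone (95% interval -0.38 to 0.56). The widest remote interval of the 10 genes was that of Cat, -0.39 to 0.76. Without Sham replicate 5 the counts were 9, 8 and 0 of 10 (background 70.0%, 61.6% and 0.111%), with Sod3 added as lower in both zones and Gclm at the border. Without MI+Cell Sheet replicate 1 they were 7, 5 and 0 (background 51.1%, 39.4% and 0.0328%).

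The 5 further lists of related genes were counted in the same fits, and are described by their counts, beside the share of all genes called, and by the called genes with the largest change. In MI against Sham in the infarct zone, where 22.7% of all genes were higher and 27.2% lower, 15 of 34 tested glutathione enzymes were lower and 6 higher, led by the transferases Gstm7 (-2.05) and Mgst2 (2.00) and the endoplasmic reticulum peroxidase Gpx8 (1.90). Of 19 thioredoxin and peroxiredoxin genes 11 were lower and 3 higher, led by the peroxiredoxin Prdx3 (-1.63), the thioredoxin reductase Txnrd2 (-1.33) and the thioredoxin Txn2 (-1.31). Among 21 NRF2 regulators and targets 6 were higher and 5 lower. Hmox1, which degrades heme, was the leading one, at 12.5 (median 18.3) to 68.7 CPM in Sham and 73.9 (median 191) to 400 CPM in MI (log2 fold change 2.99 ± 0.52, adjusted p = 0.0012), and the ferritin light chain Ftl1 was also higher (2.39). Of 12 oxidant source genes 6 were higher and 1 lower, with the phagocyte oxidase subunit Cybb (1.89) higher and the monoamine oxidase Maoa (-1.05) lower, beside macrophage genes with a median of 678 CPM in Sham and 5720 CPM in MI, whose part in this was not tested. Of 20 genes for selenoproteins and copper supply 6 were higher and 3 lower, led by Pstk (-1.30), Selenom (0.79) and Selenon (0.73). The median log2 fold changes of the 5 lists, in the order given, were -0.04, -0.63, 0.14, 0.86 and 0.16, beside -0.02 over all genes.

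In the remote zone of MI hearts, where 11.7% of all genes were higher and 14.2% lower, the leading glutathione enzymes were the peroxidases Gpx7 (1.77) and Gpx8 (1.56), both higher, and Gstz1 (-1.01). Prdx4 (1.22), Txnrd2 (-0.78) and Txnrd3 (-0.77) led the thioredoxin and peroxiredoxin genes. Selenof (0.89), Selenop (0.78), the plasma selenium carrier, and Selenos (0.59) led the selenoprotein genes. Fibroblast genes were 6473 (median 15840) to 25140 CPM there against 3358 (median 4138) to 5340 CPM in Sham, their part in this not being tested. The counts were 4 higher and 5 lower of 31 glutathione enzymes, 2 and 5 of 19 thioredoxin and peroxiredoxin genes, 3 and 4 of 21 NRF2 genes, 0 and 1 of 11 oxidant sources, and 8 and 0 of 20 selenoprotein and copper genes.

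With the cell sheet, 7 of 34 glutathione enzymes were lower than in MI in the border zone and 1 was higher, where 9.48% of all genes were lower and 8.47% higher. The counts were 6 lower and 1 higher of 19 thioredoxin and peroxiredoxin genes, 2 and 1 of 21 NRF2 genes, 1 and 1 of 12 oxidant sources and 10 and 0 of 20 selenoprotein and copper genes. Gpx4, the lipid peroxide peroxidase (-1.02), Txn1 (-1.14), Prdx1 (-0.88) and Prdx5 (-0.90) were among the lower ones. The oxidase Duox1 was higher (2.37), at 0.759 (median 1.74) to 3.12 CPM in MI and 0.970 (median 9.32) to 17.1 CPM with the sheet. Remote libraries, where 6.79% of all genes were lower and 10.3% higher, had 6 of 20 selenoprotein and copper genes lower and none higher, the metallothionein Mt1 (-1.04) and Selenof (-0.79) among them, and Prdx4 was lower (-0.996). The 5 lists had no gene called in the infarct zone, where edgeR called none of 16196 genes.

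**Figure D4:**
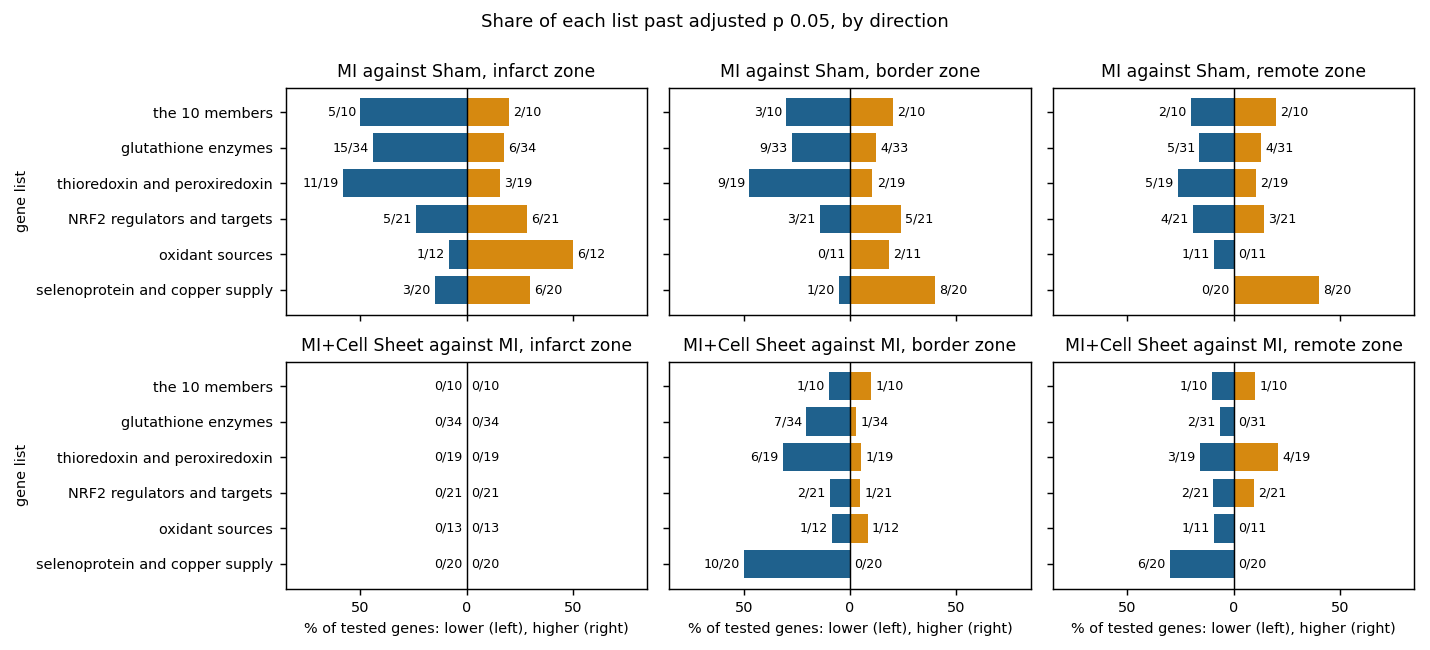
Share of the tested genes of each list that passed an adjusted p of 0.05, lower to the left and higher to the right, with the counts beside each bar, for MI against Sham (top row) and MI+Cell Sheet against MI (bottom row). In the border zone with the sheet 10 of 20 selenoprotein and copper genes were lower and none higher, and no list has a bar in the infarct panel of that row.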

How the data were processed

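RNA-seq libraries of 3 zones of 18 rat hearts were analysed from the deposited raw counts per gene, which the authors made by aligning reads to mRatBN7.2 with STAR; which tool counted reads, and whether by strand, is not given in the sources used here. The 5 summary lines of each file, holding 17.0% to 42.8% of its total, were left out. Gene counts per library ranged from 12699204 to 23397754, and counting intervals would cover counting error only. Each comparison of 6 against 6 libraries was fitted over all genes with edgeR 4.0.16 (quasi-likelihood F test, TMM scaling, filterByExpr) in R 4.3.3, with Benjamini-Hochberg adjustment at 0.05. Zone differences were fitted as interactions with the animal as a block. The SE was the log2 fold change divided by the square root of F, and 95% intervals used a t distribution with 10 degrees of freedom. Levels are CPM after 1 TMM scaling over 54 libraries. Within-library ratios used an offset of 0.5 counts and exact permutation tests (scipy 1.17.1). When a heart was left out, only the p of that ratio test was replaced before adjustment over the 24 tests. The others kept their p from all hearts. The fit was tested on simulated data. Alternatives were DESeq2 1.42.0, other filters, no TMM, a replicate block, composition covariates and leaving out each heart. From each further list the 3 called genes with the largest absolute change and a mean log2 CPM of at least 1 were named, except some that are not reported here. The 10 genes, the lists and the tests were chosen with earlier results of these data known. The p-values measure the spread between these samples.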

Additional observations from a re-analysis of the deposited data

Results flagged for a closer look

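Of 126 groups of 6 libraries, 5 held a value whose gap to its nearest neighbour exceeded 0.625 of the group's range, and chance gives about 1 group in 20. Txnrd1 was 130.3 CPM in the border zone of MI replicate 2, and 73.1 to 83.2 CPM in the other 5 libraries. Sod1 was 90.2 CPM in the remote zone of MI+Cell Sheet replicate 6, and 35.2 to 53.5 CPM in the others. Sod2 was 491 CPM in the remote zone of Sham replicate 5, and 653 to 715 CPM in the others. The log2 ratio of Gclm to Gclc was -0.29 in the border zone of the same Sham heart (others 0.14 to 0.35), and -0.81 in the remote zone of MI+Cell Sheet replicate 1 (others 0.23 to 0.83).

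The MI effect differed between the infarct and remote zones by the interaction test for 4 genes, by 0.46 for Txnrd1, -0.95 for Sod1, -0.70 for Sod2 and -1.04 for Gpx1 on the log2 scale.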

How the results depend on the processing

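Of 80 counts of called genes recomputed under another setting than leaving out a heart, 72 stayed within 1.5 times the reported count. With the cardiomyocyte covariate, added after the data were seen, MI against Sham gave 1 gene for infarct and 1 for border tissue (background 4.14% and 6.66%). In those fits the sign turned for Cat in the infarct zone (0.012), Txnrd1 in the border zone (-0.031) and Sod1 in the remote zone (0.098), none of them past the test in either fit. Of 90 further log2 fold changes with an unadjusted p of at least 0.05, 39 took the other sign in at least 1 alternative fit, among them Sod3 for MI against Sham in the border zone (-0.36, range -0.50 to 0.45) and Gclc in the remote zone (0.28, range -0.15 to 0.41), and 9 passed the test in at least 1. The adipocyte covariate left 1 gene for the sheet in the border zone, and DESeq2 called 4 in the remote zone. The causes were not tested.

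Replicate numbers did not pair the hearts: at most 2 of 6 same-numbered pairs correlated above 0.1 in any comparison. With the replicate block the count was 3 for MI against Sham in the border zone, where 4193 of 15641 genes were called. For the sheet against MI the counts were 1, 0 and 1 in the border zone, the remote zone and the summed zones. Over all genes they were 1214 of 16272, 2 of 15374 and 477 of 17985. For zone differences the fit without the block called 3 genes rather than 4 between infarct and remote zones, losing Sod2 (adjusted p = 0.14, edgeR). Over all genes that fit called 1431 of 16445.

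Leaving out 1 heart at a time gave 4 to 7 genes for MI against Sham and 2 to 6 for the sheet against MI in the remote zone, the highest without Sham replicate 5 and without MI+Cell Sheet replicate 1. The zone differences of MI between border and remote zones ranged over 0 to 4 genes, highest without MI replicate 5, a fit whose background is not given here. Those of the sheet ranged over 0 to 2 (infarct against remote) and 0 to 1 (border against remote). Both were highest without MI+Cell Sheet replicate 1, where the backgrounds were 11.8% and 1.28%. The log2 ratio of Gclm to Gclc ranged from -0.49 to -0.28 for MI against Sham in the remote zone, and for the sheet from -0.23 to 0.011, from -0.18 to 0.11 and from 0.31 to 0.64 in the infarct, border and remote zones. For the sheet, Gpx3 to Gpx1 ranged from 0.50 to 0.79 in the border zone and from -1.08 to -0.69 in the remote zone, and Sod3 to Sod2 from -1.27 to -0.84 in the remote zone. Without MI+Cell Sheet replicate 1 the remote ratios of Gclm to Gclc and of Sod3 to Sod2 passed for the sheet (0.64 and -1.27, exact permutation tests, adjusted p = 0.010 for each), as did the Gpx3 difference between border and remote zones (0.94, adjusted p = 0.043, edgeR). Without Sham replicate 5, Gclm was called lower for the sheet against Sham in the border zone (-0.41, adjusted p = 0.020, edgeR). Cat to Gpx1 for MI against Sham ranged from -0.14 to 0.17 in the infarct zone and from -0.81 to -0.49 in the border zone.

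Counts over all genes moved by more than 1.5 times in these fits. For MI against Sham the cardiomyocyte covariate gave 653 rather than 7866 genes in infarct, 1041 rather than 6517 in border and 2364 rather than 3952 in remote tissue, and the replicate block 4193 at the border. For the sheet against MI at the border, 2922 genes became 4687 with the cardiomyocyte covariate, 1796 with the adipocyte covariate and 1214 with the replicate block. The block gave 2 rather than 2623 genes in the remote zone and 477 rather than 2179 over the summed zones, where testing without a filter on low counts gave 1378. DESeq2 and the fit of all 9 groups called 55 and 6 genes rather than 0 for the sheet against MI in the infarct zone, and 173 and 183 rather than 1 for the sheet against Sham in the remote zone, where the block gave 0. Zone differences without the block came to 1431 rather than 4748 genes for MI between infarct and remote zones, and for the sheet to 6 between border and remote and 80 between border and infarct zones rather than 0.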
